A study of Mus musculus with 10 samples.

Results

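The 10 genes described here encode receptor chains and intracellular parts of signaling by the IL6 family of cytokines, together with the IL4 receptor α chain. They are *Il6st*, *Il6ra*, *Lifr*, *Osmr*, *Il11ra1*, *Il4ra*, *Socs3*, *Stat3*, *Jak1* and *Jak2*, taken by gene symbol from a table of 49568 genes. All 10 were found, and all 10 were among the 14870 genes tested, those whose normalized count averaged at least 10 over the mice.

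RNA came from reactive cholangiocytes, the bile duct cells that expand when the liver is injured, of 5 *Ctl* and 5 *Smad4*del mice. The *Smad4*del mice carry *Alb-Cre* and *Smad4* fl/fl, so that Cre under the albumin promoter deletes *Smad4* in the epithelium of the liver, in hepatocytes as well as bile duct cells. By the labels the *Ctl* genotype is *Smad4*wt/wt, and the study describes controls without *Alb-Cre*, so an effect of Cre and one of *Smad4* cannot be told apart. Every mouse of both cohorts was fed chow with 0.1% DDC, which blocks and injures bile ducts with porphyrin deposits, over 2 weeks. The mice were of mixed genetic background, and neither age, sex, litter nor batch is given in the labels. EPCAM+/CD45-/TER119- cells were sorted from digested livers, although the labels also carry a tag for a cell line and a culture protocol. Each mouse gave 1 library, named below by its number.

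Cytokines of the IL6 family share the receptor chain GP130, the product of *Il6st*, which pairs with a chain that recognizes the ligand. The bound receptor activates the kinases JAK1 and JAK2, which phosphorylate STAT3, and STAT3 in turn induces *Socs3*, whose product binds GP130 and shuts the signal down. The IL4 receptor α chain uses JAK1 as well, but mainly activates STAT6. In the liver these cytokines drive the acute phase response of hepatocytes, and bile duct cells respond to IL6 during injury.

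Transcripts of GP130, the LIF, oncostatin M and IL4 receptor chains, STAT3 and both kinases were lower in *Smad4*del than in *Ctl* samples. By limma on log2(normalized count + 1), with Benjamini-Hochberg adjustment over all genes tested, 7 of the 10 fell at an adjusted p below 0.05, namely *Il6st*, *Lifr*, *Osmr*, *Il4ra*, *Stat3*, *Jak1* and *Jak2*. Among all genes tested, 4.69% fell by this rule, 2.43% rose and 7.12% did either. *Il6ra*, *Socs3* and *Il11ra1* did not pass by limma. DESeq2 called *Il6ra* (adjusted p = 0.00105) and *Socs3* (0.00333) as lower. By edgeR *Il6ra* passed (0.0486) and *Socs3* did not (0.0586), and *Il11ra1* passed by neither tool. All 10 log2 fold changes (*Smad4*del minus *Ctl*) were below 0, as were those of 50.6% of all genes, and no member rose by limma, edgeR or DESeq2. Their median log2 fold change was -0.78, and that of all genes was -0.005. In *Lifr*, *Socs3* and *Jak1* each *Smad4*del mouse lay below each *Ctl* mouse, which held for 4.59% of all genes. These samples are bulk RNA, so fewer cells of a type and less RNA per cell cannot be told apart.

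Between 16249719 and 21277339 reads fell on genes in the *Ctl* libraries, and between 16734672 and 19710560 in the *Smad4*del libraries. *Smad4* itself fell from 3389 ± 347 normalized counts (SD, n = 5) to 877 ± 144 (SD, n = 5), a log2 fold change of -1.96 with an adjusted p of 1.09e-05 from limma, and the cohorts did not overlap. The mean log2(normalized count + 1) over 16 cholangiocyte markers ranged from 12.7 to 13.2 among *Ctl* mice and from 12.9 to 13.3 among *Smad4*del mice (exact two-sided permutation test, p = 0.532, adjusted over 8 marker lists p = 0.608). Among these *Spp1*, the gene of osteopontin, was the most abundant. Transcripts of other cell types were present too and are given with the members below.

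**Figure D1:**
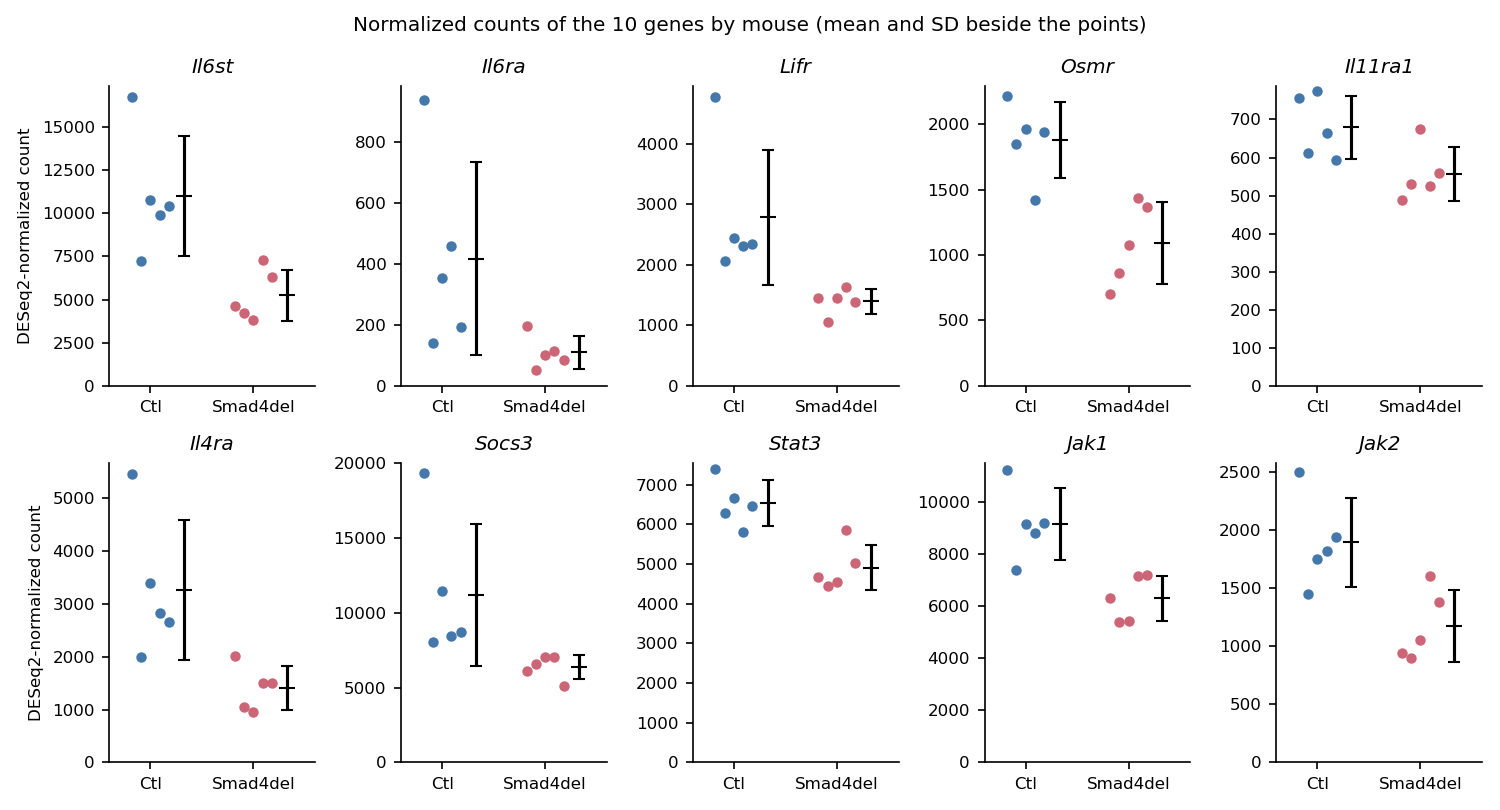
DESeq2-normalized counts (vertical axes, each from 0) of the 10 genes in the 5 *Ctl* mice (blue points) and the 5 *Smad4*del mice (red points), each point 1 mouse in order of mouse number, with the mean and SD beside them. *Ctl* mouse A5215 is the highest point in 9 of the 10 panels, and the cohorts are fully apart in *Lifr*, *Socs3* and *Jak1*.

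*Il6st* encodes GP130, the shared signaling chain of the family (GRCm38 chromosome 13, 112464070 to 112510086, plus strand, as all positions here from GENCODE M21). Its normalized counts in *Ctl* mice were 16712 in A5215, 7231 in A5219, 10785 in A5221, 9900 in A5626 and 10441 in A5628. Those in *Smad4*del mice were 4634 in A5216, 4234 in A5217, 3807 in A5218, 7293 in A5447 and 6300 in A5624. The cohorts touched only where *Smad4*del mouse A5447 lay just above *Ctl* mouse A5219. The log2 fold change was -1.06 (standard error 0.223, adjusted p = 0.0180), a 2.08-fold lower level.

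Among the chains that recognize a ligand, *Lifr* and *Osmr* lie beside each other on chromosome 15, 215645 bases apart. *Lifr* (7090614 to 7197489, plus strand) encodes the receptor chain for LIF. Its normalized counts were 4768 in A5215, 2062 in A5219, 2439 in A5221, 2317 in A5626 and 2336 in A5628 of the *Ctl* cohort. In the *Smad4*del cohort they were 1459 in A5216, 1062 in A5217, 1451 in A5218, 1630 in A5447 and 1384 in A5624. *Ctl* mouse A5215 stood far above the other *Ctl* mice, which were close to each other and still above every *Smad4*del mouse. *Lifr* fell by 0.93 on the log2 scale (standard error 0.206, adjusted p = 0.0220).

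*Osmr* (6813577 to 6874969, minus strand) encodes a receptor chain for oncostatin M. Its normalized counts in *Ctl* mice were 2217 in A5215, 1851 in A5219, 1960 in A5221, 1420 in A5626 and 1943 in A5628. In *Smad4*del mice they were 706 in A5216, 867 in A5217, 1079 in A5218, 1437 in A5447 and 1371 in A5624. *Ctl* mouse A5626 was the low one of its cohort and lay below *Smad4*del mouse A5447. *Osmr* fell by 0.82 on the log2 scale (standard error 0.194, adjusted p = 0.0287).

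*Il6ra*, the gene of the IL6-binding chain (chromosome 3, 89864059 to 89913196, minus strand), had the lowest mean count of the 10 in each cohort. Its counts were 939 in A5215, 142 in A5219, 354 in A5221, 458 in A5626 and 194 in A5628 of the *Ctl* cohort, and 196 in A5216, 51.9 in A5217, 102 in A5218, 114 in A5447 and 83.5 in A5624 of the *Smad4*del cohort. Its spread in *Ctl* mice was wide, with an SD of 76.1% of the mean, and *Smad4*del mouse A5216 lay above 2 *Ctl* mice. The log2 fold change of *Il6ra* was -1.73 (95% confidence interval -2.79 to -0.67), with an adjusted p of 0.0521 that misses the threshold.

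*Il11ra1*, which encodes the IL11-binding chain (chromosome 4, 41699989 to 41769474, plus strand), differed least. Its normalized counts were 755 in A5215, 611 in A5219, 774 in A5221, 665 in A5626 and 593 in A5628 of the *Ctl* cohort. In the *Smad4*del cohort they were 488 in A5216, 531 in A5217, 675 in A5218, 525 in A5447 and 561 in A5624. *Smad4*del mouse A5218 lay within the *Ctl* range and the other 4 below it. The log2 fold change of *Il11ra1* was -0.29 (95% confidence interval -0.56 to -0.02, adjusted p = 0.156). The mouse genome holds near-identical copies of this gene, so its counts are uncertain.

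*Il4ra* encodes the α chain that the receptors for IL4 and IL13 share (chromosome 7, 125552120 to 125579474, plus strand). Its normalized counts were 5449 in A5215, 1987 in A5219, 3390 in A5221, 2830 in A5626 and 2664 in A5628 of the *Ctl* cohort. In the *Smad4*del cohort they were 2004 in A5216, 1052 in A5217, 956 in A5218, 1499 in A5447 and 1496 in A5624. Only *Smad4*del mouse A5216 reached the *Ctl* range, where it lay just above A5219. With a log2 fold change of -1.19 (standard error 0.260, adjusted p = 0.0215), *Il4ra* had the largest fall among the 7 members that passed.

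Both kinases fell. *Jak1* (chromosome 4, 101152367 to 101265282, minus strand), used by both receptor systems, had 11242 normalized counts in A5215, 7404 in A5219, 9157 in A5221, 8832 in A5626 and 9210 in A5628 of the *Ctl* cohort. It had 6310 in A5216, 5403 in A5217, 5454 in A5218, 7170 in A5447 and 7195 in A5624 of the *Smad4*del cohort. The cohorts did not overlap, although *Smad4*del mice A5447 and A5624 came close to *Ctl* mouse A5219. *Jak1* fell by 0.54 on the log2 scale (standard error 0.122, adjusted p = 0.0243).

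*Jak2* (chromosome 19, 29251828 to 29313080, plus strand) had 2504 normalized counts in A5215, 1450 in A5219, 1756 in A5221, 1827 in A5626 and 1947 in A5628 of the *Ctl* cohort. It had 943 in A5216, 896 in A5217, 1053 in A5218, 1607 in A5447 and 1381 in A5624 of the *Smad4*del cohort. *Smad4*del mouse A5447 lay above *Ctl* mouse A5219. *Jak2* fell by 0.70 on the log2 scale (standard error 0.182, adjusted p = 0.0401). This call was lost by edgeR (adjusted p = 0.0537), without the filter on low counts (0.0587) and with an *Xist* term (0.0521). It was also lost by limma with a term for the macrophage marker level (0.0593) or the endothelial marker level, and by edgeR without mouse A5217. Of the 10 limma fits that left out 1 mouse, 3 kept the call.

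*Stat3*, the transcription factor of the pathway (chromosome 11, 100885098 to 100939540, minus strand), had the narrowest spread in *Ctl* mice, with an SD of 8.92% of the mean. Its normalized counts were 7404 in A5215, 6294 in A5219, 6669 in A5221, 5815 in A5626 and 6453 in A5628 of the *Ctl* cohort, and 4671 in A5216, 4450 in A5217, 4539 in A5218, 5864 in A5447 and 5019 in A5624 of the *Smad4*del cohort. *Smad4*del mouse A5447 lay just above *Ctl* mouse A5626. *Stat3* fell by 0.41 on the log2 scale (standard error 0.0942, adjusted p = 0.0248), the smallest change among the 7 members that passed. It shares 72 exon bases with *Stat5a* on the opposite strand, and reads of overlapping genes cannot be told apart where strand is not marked.

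*Socs3*, the feedback inhibitor (chromosome 11, 117966079 to 117970047, minus strand), had 19312 normalized counts in A5215, 8046 in A5219, 11466 in A5221, 8417 in A5626 and 8700 in A5628 of the *Ctl* cohort. It had 6122 in A5216, 6547 in A5217, 7033 in A5218, 7055 in A5447 and 5106 in A5624 of the *Smad4*del cohort. The cohorts did not overlap, with A5215 far above the other *Ctl* mice. The log2 fold change of *Socs3* was -0.74 (95% confidence interval -1.20 to -0.27), with an adjusted p of 0.0572 that misses the threshold.

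**Figure D2:**
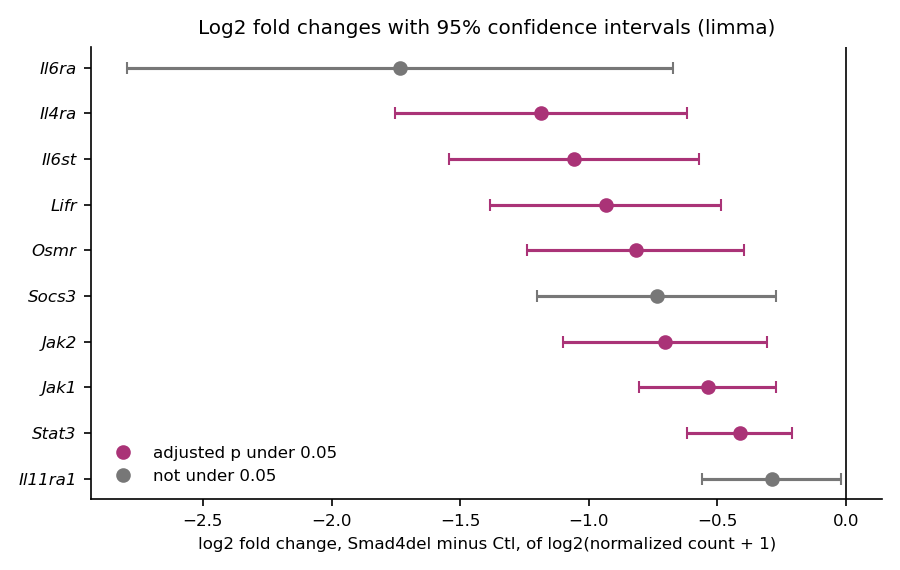
Log2 fold changes (horizontal axis, *Smad4*del minus *Ctl*, of log2(normalized count + 1)) of the 10 genes with 95% confidence intervals from limma, the 7 with an adjusted p below 0.05 in purple and the other 3 in grey. All points lie below 0, from -1.73 in *Il6ra* to -0.29 in *Il11ra1*.

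The start regions of *Socs3* and *Il4ra* are shown because they stand for the STAT3 feedback gene and the member with the largest fall that passed, and to let the motifs be seen in place. They are taken from RefSeq on GRCm38.p6 as 250 bases before to 50 bases after the annotated start, written on the strand of the gene. *Socs3* is from chr11:117969317-117969616 (minus strand) and *Il4ra* from chr7:125552021-125552320 (plus strand). Capitals mark the 9-base STAT motif TTCNNNGAA in *Socs3* and the SMAD-binding motif CAGAC, read as GTCTG on this strand, in *Il4ra*.
*Socs3*: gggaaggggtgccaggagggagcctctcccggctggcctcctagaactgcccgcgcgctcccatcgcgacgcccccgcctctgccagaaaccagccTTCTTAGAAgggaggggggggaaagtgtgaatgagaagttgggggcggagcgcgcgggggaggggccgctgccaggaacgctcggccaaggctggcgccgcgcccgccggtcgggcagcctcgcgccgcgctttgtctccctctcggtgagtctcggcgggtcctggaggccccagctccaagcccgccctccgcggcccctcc
*Il4ra*: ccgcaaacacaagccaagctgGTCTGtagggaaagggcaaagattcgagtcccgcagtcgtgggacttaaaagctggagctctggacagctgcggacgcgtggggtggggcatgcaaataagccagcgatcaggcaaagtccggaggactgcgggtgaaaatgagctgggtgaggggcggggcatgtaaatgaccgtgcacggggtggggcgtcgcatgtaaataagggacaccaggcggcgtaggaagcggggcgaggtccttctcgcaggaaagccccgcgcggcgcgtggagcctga

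All 10 members matched the RefSeq table, with 12 windows in all. On either strand TTCNNNGAA was in 1 of the 12, that of *Socs3*, and in 8.30% of the 32851 windows of all genes. The spacing TTCNNNNGAA, which STAT6 also binds, was in 0 of the 12 and in 6.95% of all windows. CAGAC was in 5 of the 12, windows of *Il11ra1*, *Il4ra*, *Osmr* and *Lifr*, and in 49.6% of all windows. The palindrome GTCTAGAC, another motif of SMAD proteins, was in 0 of the 12 and in 0.213% of all windows. A match describes letters in the window and not a bound site.

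Levels were compared between genes per kb of exon, the normalized count divided by the joined exon length of the gene. By its mean over all 10 mice, *Socs3* was above 98.5% of the 14502 genes with a length. In *Ctl* samples *Socs3* had the highest level of the members, at 3870 ± 1639 normalized counts per kb (SD, n = 5). *Jak1* followed at 1269 ± 190, *Il6st* at 992 ± 313, *Stat3* at 685 ± 61.1 and *Il4ra* at 544 ± 220 per kb. *Jak2* was at 377 ± 76.7, *Lifr* at 258 ± 104, *Osmr* at 155 ± 23.9, *Il11ra1* at 152 ± 18.4 and *Il6ra* at 48.3 ± 36.8 per kb. The ranges of neighbours over the mice were apart between *Socs3* and *Jak1*, between *Lifr* and *Osmr* and between *Il11ra1* and *Il6ra*, and overlapped at every other step. The IL6-binding chain thus stood at the lower end of the order and the shared signaling chain near the top.

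In *Smad4*del samples *Socs3* again had the highest level at 2204 ± 279 per kb (SD, n = 5) and *Il6ra* the lowest at 12.7 ± 6.21. *Stat3* at 515 ± 60.5 stood above *Il6st* at 473 ± 133 and *Jak2* at 234 ± 60.9 above *Il4ra* at 233 ± 69.8, the reverse of the *Ctl* order, with overlapping ranges in each pair. *Il11ra1* at 124 ± 16.0 likewise stood above *Osmr* at 90.1 ± 26.0, again with overlap. With the length of the longest transcript in place of the joined exons, *Osmr* rose above *Lifr* in both cohorts, at 342 and 288 per kb in *Ctl* and 199 and 145 in *Smad4*del samples. On that scale *Il4ra* at 267 stood above *Jak2* at 234 in *Smad4*del samples, as in *Ctl* samples.

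**Figure D3:**
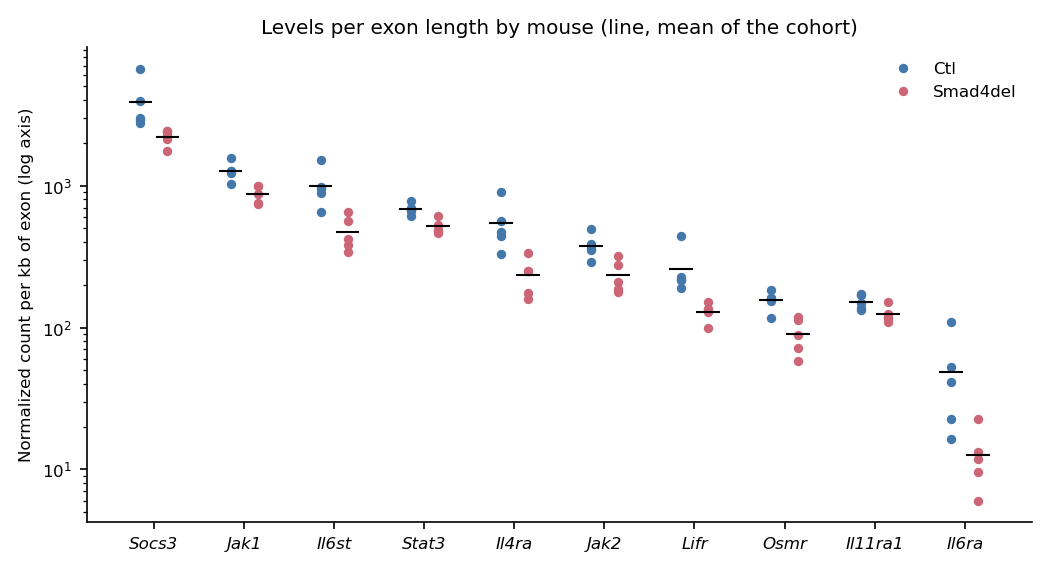
Normalized counts per kb of joined exon (vertical log axis) of the 10 genes in each *Ctl* (blue) and *Smad4*del (red) mouse, ordered by the *Ctl* mean, with black lines at the cohort means. *Socs3* leads at 3870 in *Ctl* and 2204 in *Smad4*del samples, and *Il6ra* is lowest at 48.3 and 12.7.

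*Ctl* mouse A5215 was the highest of its cohort in 9 of the 10 members, the exception being *Il11ra1*, and A5219 the lowest in 7. Among *Smad4*del mice A5447 was highest in 6 members and A5217 lowest in 5. Within the lower mouse numbers, A5215 to A5221 with 3 mice per cohort, all 10 members were lower in *Smad4*del samples, by 1.37 on the log2 scale in *Il6st*, 1.20 in *Osmr*, 1.39 in *Il4ra* and 0.57 in *Stat3*. Within the higher numbers, A5447 to A5628 with 2 mice per cohort, the log2 differences were below 0 in all 10 as well, at -0.58 in *Il6st*, -0.24 in *Osmr*, -0.87 in *Il4ra* and -0.18 in *Stat3*. A number range is not named as a batch in the labels, and the difference between the ranges was not tested.

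Centred profiles over the 10 mice were compared by their root mean square log2 difference, as a description. The profiles were not scaled, so genes that vary little between mice tend to lie closer to each other. The median distance over genes was 0.417 for *Stat3* and 0.827 for *Il4ra*. Among pairs of members *Stat3* and *Jak1* were the closest at 0.135, followed by *Jak1* and *Jak2* at 0.173, and *Il6ra* was at least 0.561 from every other member. Over all genes tested, the 3 nearest to *Il6st* were *Ece1*, *Adamts1* and *Chpf2* at 0.148 to 0.156, against a median of 0.744 over genes. The nearest to *Il4ra* were *Sp100*, *Cd38* and *Anxa1* (0.145 to 0.191), and those to *Lifr* were *Tcp11l2*, *Serinc3* and *Klf2* (0.124 to 0.150). *Zhx3*, *Aff1* and *Usp27x* were nearest to *Osmr* (0.164 to 0.170), *Mtmr3*, *Abi1* and *Tom1l2* to *Stat3* (0.0656 to 0.0912), *Myo9b* and *Cdr2l* to *Jak1* (0.0932 and 0.0940), and *Tbc1d2b*, *4931406P16Rik* and *Tmem2* to *Jak2* (0.101 to 0.130).

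Genes elsewhere in the pathway came from lists of ligands, receptors, transducers, inhibitors and targets. Of 94 other genes listed, 83 were tested, 9 fell, 1 rose and 73 did not pass, with a median log2 fold change of -0.32.

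Of 11 IL6 family ligands 8 were tested, and limma called 0, with 1 at an unadjusted p below 0.05, while edgeR and DESeq2 also called 0. *Clcf1*, the most abundant ligand, had 1454 ± 144 normalized counts (SD, n = 5) in *Ctl* and 1431 ± 292 (SD, n = 5) in *Smad4*del samples, with a log2 fold change of -0.04 (95% confidence interval -0.34 to 0.26, adjusted p = 0.875). *Il6* itself, added after its values were seen, had 335 normalized counts in A5215, 84.9 in A5219, 167 in A5221, 91.1 in A5626 and 93.3 in A5628 of the *Ctl* cohort. In the *Smad4*del cohort it had 84.0 in A5216, 30.9 in A5217, 0 in A5218, 5.53 in A5447 and 71.0 in A5624. Each *Smad4*del mouse lay below each *Ctl* mouse by a margin as small as that between A5216 and A5219, and the adjusted p was 0.101. *Il4*, a ligand of the IL4 receptor, was at 2.09 to 12.2 normalized counts and too low to test, and *Il13* was at 0 in all mice.

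Of 7 other receptor chains tested, limma called 0, with 5 below 0 at an unadjusted p under 0.05, edgeR called 0 and DESeq2 called 2 as lower. *Il13ra1*, which pairs with the IL4 receptor α chain mainly outside blood cells, had 4166 ± 305 normalized counts (SD, n = 5) in *Ctl* and 3539 ± 399 (SD, n = 5) in *Smad4*del samples (log2 fold change -0.24, adjusted p = 0.114). Among 8 other kinases and STAT factors 2 fell. *Jak3*, the kinase of the γ chain of cytokine receptors, fell by 0.65 on the log2 scale (adjusted p = 0.0239) and *Stat2*, a factor of the interferon response, by 0.52 (adjusted p = 0.0367).

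Adaptors and inhibitors showed no call by limma. Of 5 adaptors 0 passed, with 0 at an unadjusted p below 0.05 and 0 by edgeR or DESeq2, and *Shc1*, the most abundant, stood at a log2 fold change of -0.11 (95% confidence interval -0.30 to 0.07, adjusted p = 0.417). Of 14 feedback genes and inhibitors other than *Socs3*, 0 passed by limma and edgeR, 3 were lower at an unadjusted p below 0.05 and DESeq2 called 2 as lower. *Socs2*, the most abundant of these, had a log2 fold change of 0.13 (95% confidence interval -0.15 to 0.40, adjusted p = 0.547).

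Of 31 targets of STAT3 and acute phase genes tested, 5 fell and 1 rose. *Steap4*, a metalloreductase induced by IL6, lay between 2574 and 2980 normalized counts in *Ctl* samples and between 819 and 1276 in *Smad4*del samples, and fell by 1.35 on the log2 scale (adjusted p = 0.000119). *Lrg1*, a secreted glycoprotein of the acute phase, fell by 0.62 (adjusted p = 0.00375), *Cebpd*, a transcription factor of the acute phase, by 1.05 (adjusted p = 0.0204), and *Lbp*, which binds lipopolysaccharide, by 0.43 (adjusted p = 0.0293). The cohorts did not overlap in any of these 4. Outside the naming rule and chosen after their values were seen, *Timp1*, an inhibitor of metalloproteinases, fell by 0.53 (adjusted p = 0.0349) and *Birc5*, a gene of mitosis that STAT3 can induce, rose by 1.06 on the log2 scale (adjusted p = 0.0413).

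Of 10 targets of STAT6 tested 2 fell, both of them chemokines that attract eosinophils, and edgeR called 0. *Ccl11* ranged from 31.6 to 172 normalized counts among *Ctl* samples and from 2.00 to 52.9 among *Smad4*del samples (log2 fold change -2.94, adjusted p = 0.0304). *Ccl24* ranged from 56.9 to 587 and from 0 to 130 (log2 fold change -4.27, adjusted p = 0.0479). The cohorts overlapped in both genes.

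**Figure D4:**
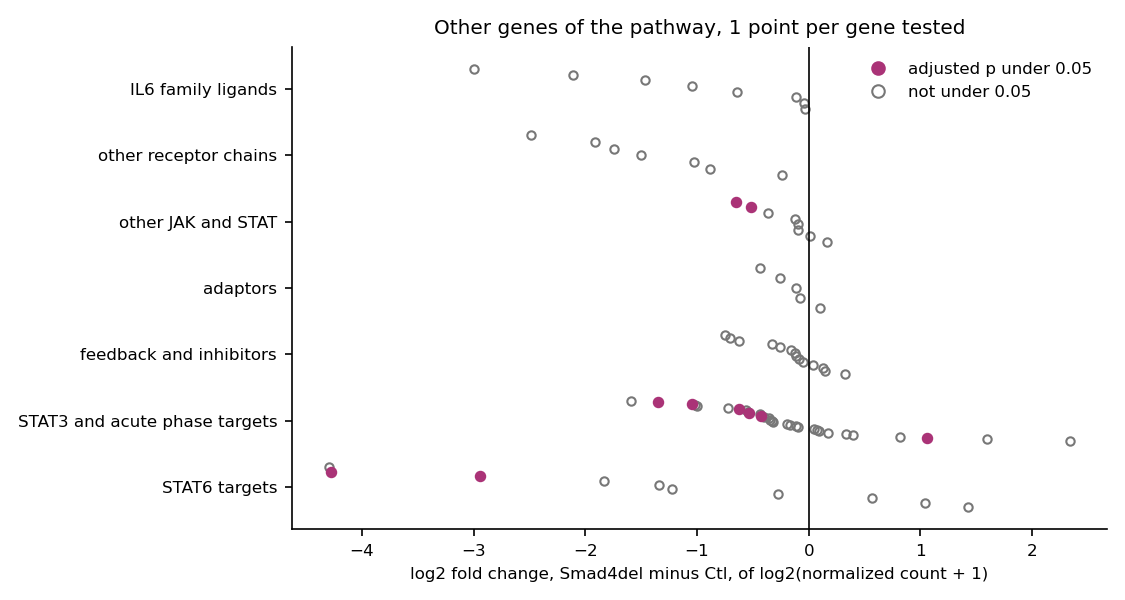
Log2 fold changes (horizontal axis, *Smad4*del minus *Ctl*, of log2(normalized count + 1)) of the other pathway genes tested, 1 point per gene, by group, with filled purple points at an adjusted p below 0.05. The 10 filled points are 2 kinase and STAT genes, 6 STAT3 and acute phase targets and 2 STAT6 targets, and 9 of the 10 lie below 0.

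The mean levels of endothelial markers and of stellate cell and fibroblast markers were also lower in *Smad4*del samples. The mean log2(normalized count + 1) of 27 endothelial markers was 11.4 in A5215, 10.1 in A5219, 10.7 in A5221, 10.7 in A5626 and 10.6 in A5628 of the *Ctl* cohort. In the *Smad4*del cohort it was 9.30 in A5216, 8.90 in A5217, 8.60 in A5218, 9.39 in A5447 and 9.59 in A5624. The cohorts did not overlap (exact two-sided permutation test, p = 0.00794, adjusted over 8 lists p = 0.0317), and 24 of the 27 markers fell, with *Plvap*, a protein of fenestrated endothelium, as the most abundant at 8246 and 2279 normalized counts. A5215 and A5219, the highest and lowest *Ctl* mice in most members, were also the highest and lowest *Ctl* mice in this level. Among *Smad4*del mice the highest and lowest were not the same mice. A5624 was highest and A5218 lowest in the endothelial level, while A5447 was highest in 6 members and A5217 lowest in 5. A5447 came next to the highest in that level at 9.39, and A5217 next to the lowest at 8.90. Whether the order of the mice matched was not tested.

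The 20 macrophage markers averaged 8.59 to 13.3 over *Ctl* mice and 6.81 to 11.3 over *Smad4*del mice (exact two-sided permutation test, p = 0.0794, adjusted p = 0.203). Limma called 0 of the 20, with 18 lower at an unadjusted p below 0.05 and 0 called by edgeR or DESeq2, and *Cd14* had the highest mean normalized count over all 10 mice, with cohort means of 29803 for *Ctl* and 24152 for *Smad4*del, while *Lyz2* was higher in *Ctl* samples, at 39435 and 13644. The 15 stellate cell and fibroblast markers, with *Rgs5* as the most abundant at 13080 and 13385 normalized counts, were at 8.63 to 10.4 and 8.04 to 8.62 without overlap (p = 0.00794, adjusted p = 0.0317, by the same exact test), and 2 of the 15 fell. *Ptprc*, the gene of the CD45 protein that the sort selected against, was at 94.4 to 2719 and 54.3 to 1176 normalized counts. No marker of these 3 lists was at 0 in all mice.

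With the endothelial level as a further term in limma, 0 of the 10 members passed, 0 of them at an unadjusted p below 0.05, and 0 genes passed in all, with 745 at an unadjusted p below 0.05. The log2 fold change then turned to 0.24 in *Il6st* (95% confidence interval -0.24 to 0.72), 0.31 in *Il4ra* (-0.28 to 0.91) and 0.41 in *Il6ra* (-1.35 to 2.17). It was -0.42 in *Osmr* (-1.32 to 0.48) and -0.10 in *Stat3* (-0.48 to 0.28). The level does not overlap between the cohorts, so a lower share of endothelial transcripts and a change within cholangiocytes cannot be told apart in these samples. With the macrophage level as the term, *Il6st*, *Osmr* and *Stat3* had an adjusted p below 0.05, 3 of 10 members against 2.87% of all genes.

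**Figure D5:**
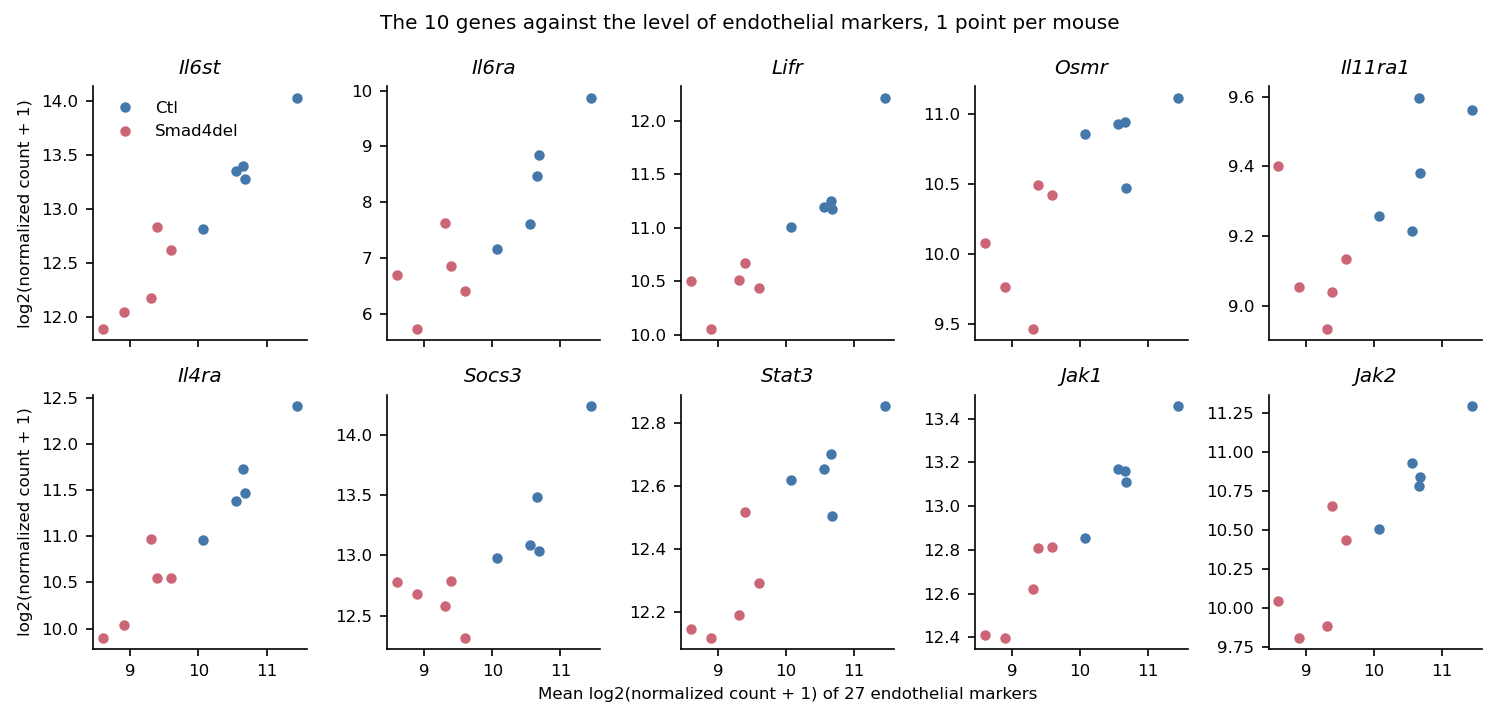
Log2(normalized count + 1) of each of the 10 genes (vertical axes, not from 0) against the mean log2(normalized count + 1) of 27 endothelial markers (horizontal axis), 1 point per mouse, *Ctl* in blue and *Smad4*del in red. The cohorts lie apart on the horizontal axis, at 10.1 to 11.4 and 8.60 to 9.59.

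The number of members that fell depended on single mice. It was 6 of 10 without *Ctl* mouse A5215 (3.13% of all genes fell) and 9 of 10 without A5219 (5.74%). It was 2 of 10, *Il6st* and *Lifr*, without A5221 (2.57%) or without *Smad4*del mouse A5218 (2.45%), and 0 of 10 without A5217 (2.21%), where 9 of 10 were lower at an unadjusted p below 0.05. It was 5 without A5628 (3.60%) and 6 without A5626 (3.13%). It was 7 without A5216 (5.11%), A5447 (5.65%) or A5624 (3.41%). In each of these fits all 10 log2 fold changes stayed below 0, and the adjusted p of *Il6st* was at most 0.0539.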

How the data were processed

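The authors trimmed single-end reads of SMART-Seq v4 libraries with Trimmomatic 0.36, aligned them with STAR to GRCm38.p5, counted them per gene with featureCounts and normalized them with DESeq2 1.14.1 in R 3.3.2. Each deposited signal value is a read count divided by the size factor of its mouse, and gene length is not corrected for. The submitters' processing notes also name mm9. By the methods, reads were counted both with unique alignments alone and with multi-mapping reads included. Which of these was deposited, and the strand setting, are not given in the sources used here. Every value was a whole multiple of the value of 1 read of its mouse (tolerance 1e-06), which gave the reads.

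Genes with a mean of at least 10 were tested with limma 3.58.1 in R 4.3.3 on log2(normalized count + 1), with a trended prior and no term but cohort, and p-values were adjusted by Benjamini-Hochberg at 0.05. On this scale a fold change understates the change of low genes. Adjusted p-values are from this fit unless another tool is named. They set the difference between the cohorts against the spread between these mice, as moderated by the trended prior. Alternatives were pseudocounts of 0.5 and 10, no filter and a minimum of 50, other scalings, sample weights, covariates, each mouse left out, and edgeR 4.0.16 and DESeq2 1.42.0 on recovered reads. These 2 tools were also run without mouse A5217, an alternative chosen after seeing the data. A single read was worth 0.998 normalized counts in A5217, and 0.849 to 1.11 over all mice. Data were simulated for this comparison over 14870 genes, with changes set only in genes with a mean of at least 50. Limma called 68 of the 100 genes set to differ 2-fold, 90 of the 100 set to differ 4-fold and 10 unchanged genes. DESeq2 called 78, 95 and 44 of these. Each pair of mice differed beyond counting noise, with 25.8 as the lowest chi-square per degree of freedom.

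The members and lists were chosen with earlier results of these data known. Genes named are the members, *Smad4*, up to 4 called genes per pathway list by p or else its most abundant gene, the 3 genes nearest in profile to each called member, and the most abundant gene of each marker list used. A gene that this rule takes is not reported here. Values of neutrophil, lymphocyte, hepatocyte and erythroid lists are in the closing part.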

Additional observations from a re-analysis of the deposited data

Results flagged for a closer look

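*Lifr* in *Ctl* mouse A5215, at 4768 normalized counts, stood apart from the other *Ctl* mice. Its gap to the next mouse was 0.861 of the range of the cohort, above the critical value of 0.71 of Dixon's test for 5 samples. This was the 1 such value among 22 groups tested, and chance alone flags about 1 group in 20. A5215 also had the highest endothelial and macrophage marker levels of all 10 mice, and their part in this value was not tested.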

How the results depend on the processing

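No paired analysis was possible because the labels do not give litter, although the study used littermates as controls where it could. All 10 members stayed below 0 under every alternative but the endothelial term, which turned *Il6st* to 0.24, *Il6ra* to 0.41, *Lifr* to 0.026, *Il4ra* to 0.31, *Jak1* to 0.13 and *Jak2* to 0.13 and left 0 members, 0 other pathway genes and 0 genes in all in either direction. With the macrophage term 3 members fell, 4 other pathway genes fell and 0 rose, and 427 genes fell and 167 rose. Without the filter 209 genes rose, and 5 other pathway genes fell and 0 rose. Quantile and median scaling gave 579 and 626 risen genes and 3 and 2 risen pathway genes. The *Xist* term gave 2 risen pathway genes. DESeq2 called 1290 lower and 893 higher genes, 9 members, and 17 pathway genes lower and 3 higher. Over 9 mice without A5217, edgeR called 265 lower and 89 higher genes, 0 members (9 at an unadjusted p below 0.05), and 3 pathway genes lower and 0 higher, while DESeq2 called 9 members, 937 lower genes (6.31% of those tested) and 444 higher genes, and 2 risen pathway genes. Leaving out 1 mouse gave 329 to 852 lower and 105 to 563 higher genes, 0 to 9 members, and 3 to 12 lower and 0 to 2 higher pathway genes. With 5 mice per cohort, limma recovered simulated 2-fold changes in 68 of 100 genes with a mean of at least 50, so smaller changes can be missed.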

Other observations

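The other 4 marker lists were compared as mean log2(normalized count + 1) with the exact two-sided permutation test, adjusted over 8 lists. The 8 neutrophil markers, with *S100a9* as the most abundant, averaged 2.40 to 5.13 over *Ctl* mice and 1.82 to 4.30 over *Smad4*del mice (adjusted p = 0.203). The 13 lymphocyte markers, led by *Lck*, were at 1.39 to 3.83 and 1.05 to 2.38 (adjusted p = 0.203). The 16 hepatocyte markers, led by *Gc*, were at 9.53 to 10.5 and 9.79 to 11.1 (adjusted p = 0.413). The 7 erythroid markers found, led by *Hbb-bs*, were at 2.91 to 6.63 and 1.21 to 7.44 (adjusted p = 0.802). All 4 lists overlapped between the cohorts.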
